A study of Homo sapiens with 6 samples.

Results

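Tumour cells can restrain immune cells through proteins that they display or secrete, and the RNA of 10 genes for such proteins was followed here in an oral cancer cell line under low oxygen. The genes were CD274 (PD-L1), PDCD1LG2 (PD-L2), CD276 (B7-H3), VTCN1 (B7-H4), NT5E (CD73), ENTPD1 (CD39), PVR (CD155), NECTIN2 (CD112), CD47 and LGALS9 (galectin-9). They were chosen by name as ligands or enzymes of known checkpoint pathways, with earlier results of these data known, and all 10 were found among the 21776 genes of the count table.

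The cells were SCC25, an established line from a human oral squamous cell carcinoma, labelled as wild type and grown in the same medium with serum in both conditions. The hypoxia libraries came from cells kept for 12 h at 1% O2 and 5% CO2 with the balance N2, and the normoxia libraries from cells kept for 12 h in 5% CO2 and air. Each condition had 3 RNA-seq libraries, and no label says that these came from separate cultures, so that p-values measure only the spread between these libraries. The library totals were 30186813, 36076088 and 32272716 counts for hypoxia replicates 1 to 3 and 37278703, 29637189 and 29981208 counts for normoxia replicates 1 to 3. The legend of the study's RNA-seq figure names another oral line, SCC9, and the groups here follow the labels.

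Immune checkpoints are receptor and ligand pairs that dampen an immune response. PD-L1 and PD-L2 bind PD-1 on T cells and weaken signalling from the T cell receptor, and B7-H3 and B7-H4 belong to the same family of ligands. CD155 and CD112 are adhesion proteins of the nectin family that inhibit lymphocytes through TIGIT, CD96 and PVRIG and activate them through CD226. CD39 and CD73 act in sequence outside the cell, where CD39 breaks down ATP to AMP and CD73 turns AMP into adenosine, which quiets T cells. CD47 signals macrophages through SIRPA not to engulf the cell, and galectin-9 is a sugar-binding protein with TIM-3 (HAVCR2) among its receptors. In squamous cell carcinoma, checkpoint blockade acts on the pair of PD-1 on the T cell and PD-L1 on the tumour cell. Transcription of CD274 is known to respond to interferon-gamma and to hypoxia-inducible factors (HIF).

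Promoter sequences of 5 of these genes are shown as examples, picked with their direction and motifs known: CD274 as the gene for PD-L1, PVR and NECTIN2 as relatives that moved apart, and CD47 and LGALS9 as ligands of other pathways. They are RefSeq sequences of build GRCh38.p14, with 250 bases before and 50 bases after the annotated start, read 5′ to 3′ on the strand of the gene. Capitals mark the letters ACGTG or GCGTG, the core of a hypoxia response element that HIF binds, or TTCNNNGAA or a pair of GAAA with any 2 bases between them, which are patterns of interferon-responsive sites. All were searched on both strands, and matches of the paired GAAA overlap in CD274. The windows lie at chr9:5450292-5450591 on the plus strand for CD274, chr19:44643660-44643959 on the plus strand for PVR, chr19:44846047-44846346 on the plus strand for NECTIN2, chr3:108090982-108091281 on the minus strand for CD47 and chr17:27630938-27631237 on the plus strand for LGALS9.
CD274: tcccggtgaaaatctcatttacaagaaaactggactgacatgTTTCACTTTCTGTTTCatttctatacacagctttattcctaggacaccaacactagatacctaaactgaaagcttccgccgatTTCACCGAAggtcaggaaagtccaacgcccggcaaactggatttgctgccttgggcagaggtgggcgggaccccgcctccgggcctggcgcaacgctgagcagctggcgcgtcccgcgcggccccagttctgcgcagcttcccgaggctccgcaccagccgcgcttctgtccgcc
PVR: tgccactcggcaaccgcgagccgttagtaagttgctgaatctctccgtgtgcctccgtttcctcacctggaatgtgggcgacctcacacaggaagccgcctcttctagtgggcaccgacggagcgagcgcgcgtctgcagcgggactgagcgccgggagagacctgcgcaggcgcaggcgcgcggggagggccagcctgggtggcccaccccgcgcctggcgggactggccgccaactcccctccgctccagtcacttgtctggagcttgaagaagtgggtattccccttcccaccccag
NECTIN2: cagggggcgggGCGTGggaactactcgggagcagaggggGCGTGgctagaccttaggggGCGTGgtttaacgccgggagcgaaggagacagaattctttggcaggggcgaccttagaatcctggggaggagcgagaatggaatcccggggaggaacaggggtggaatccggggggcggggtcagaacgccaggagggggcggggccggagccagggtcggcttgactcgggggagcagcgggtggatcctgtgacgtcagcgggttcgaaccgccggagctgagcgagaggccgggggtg
CD47: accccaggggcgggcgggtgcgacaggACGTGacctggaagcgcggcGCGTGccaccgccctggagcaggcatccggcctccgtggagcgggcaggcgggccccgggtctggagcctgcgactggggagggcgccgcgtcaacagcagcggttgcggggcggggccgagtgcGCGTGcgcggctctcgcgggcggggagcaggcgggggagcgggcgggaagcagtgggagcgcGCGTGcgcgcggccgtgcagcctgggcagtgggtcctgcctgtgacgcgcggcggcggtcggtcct
LGALS9: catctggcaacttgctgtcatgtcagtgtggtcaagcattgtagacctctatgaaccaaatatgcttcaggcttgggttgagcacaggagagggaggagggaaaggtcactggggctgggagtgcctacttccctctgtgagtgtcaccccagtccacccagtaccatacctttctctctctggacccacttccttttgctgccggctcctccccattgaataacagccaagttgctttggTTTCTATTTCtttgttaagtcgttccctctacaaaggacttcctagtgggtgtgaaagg

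The CD274 window held TTCNNNGAA at position -125 from the start and 2 overlapping matches of the paired GAAA, and neither hypoxia response core. LGALS9 held the paired GAAA at position -9, and PVR held none of the 4 patterns. NECTIN2 held GCGTG 3 times, and CD47 held GCGTG 3 times and ACGTG once, at position -223. NT5E, which is not shown, fell under hypoxia and held GCGTG at position 44 after the start, so of the 3 genes that fell and were matched, NT5E held a hypoxia response core and CD274 and PVR did not. RefSeq gave 14 windows for 9 of the genes, all but PDCD1LG2 (5 for ENTPD1 and 2 for CD276), and 6 windows, of 6 genes, held ACGTG or GCGTG. Among 35116 promoters of the same length, 48.4% held ACGTG or GCGTG, 7.66% held TTCNNNGAA and 3.57% held the paired GAAA. These matches are a description of the letters in the windows and say nothing about whether a factor was bound.

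The cells were first checked against their labels, in CPM, which are counts scaled to library totals normalized by the trimmed mean of M-values (TMM). Hypoxia response genes were higher in the libraries labelled as hypoxia, with CA9 (carbonic anhydrase 9) at 277 ± 15.4 against 42.4 ± 22.03 CPM (mean ± SD, n = 3 per condition) and VEGFA, the vascular growth factor, at 1278 ± 65.7 against 184 ± 18.7 CPM. All 15 of 15 hypoxia response genes rose by edgeR's quasi-likelihood test at an adjusted p under 0.05. Among all 14255 tested genes, 39.2% were called higher. Within normoxia, replicate 3 lay nearest to the hypoxia libraries for NDRG1, a hypoxia-induced gene, with 409 CPM against 163 and 140 CPM in replicates 1 and 2. Without that library every tested checkpoint gene kept its direction and its call. 

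Squamous markers were present, with EPCAM the most abundant and a summed level of 430 ± 7.58 FPKM under hypoxia against 467 ± 7.13 FPKM under normoxia. FPKM, which the authors deposited, scale the counts by gene length and library total. KRT14, a basal keratin that defines squamous epithelium, was nevertheless at 0 counts in 5 libraries and at 1 count in normoxia replicate 2, while KRT5 was at 111 ± 5.49 and 126 ± 9.90 CPM. Of the 7 tested squamous markers 3 rose (CDH1, DSG3 and KRT17), 3 fell (KRT5, EPCAM and SFN) and 1, TP63, did not pass the test. Over all tested genes 77.8% were called, 39.2% higher and 38.5% lower. The adhesion protein gene CDH1 rose from 188 ± 10.9 to 479 ± 4.85 CPM (log2-fold change 1.35, edgeR adjusted p = 5.767e-13). The defining marker of blood cells, PTPRC, had 2 counts in hypoxia replicate 3 and 0 in the other 5 libraries. The T cell genes CD3D and CD3E had 1 count each, both in hypoxia replicate 2, and CD8A had 3, 12 and 8 counts under hypoxia and 3, 2 and 6 under normoxia. Of the 10 immune markers 7 were in the table, and their summed level of 22.2 ± 1.82 against 19.8 ± 1.08 FPKM came mainly from CD68, a lysosomal protein, at 31.0 ± 3.36 and 33.1 ± 1.07 CPM. CD14, a receptor of myeloid cells, was the only immune marker called, and it rose from 1.07 ± 0.481 to 5.83 ± 0.445 CPM (log2-fold change 2.45, edgeR adjusted p = 7.27e-08).

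The sum of the fibroblast markers was 3.42 ± 0.493 FPKM under hypoxia and 0.722 ± 0.221 FPKM under normoxia, with COL1A1 the most abundant, and DCN had at most 4 counts in any library. The endothelial markers summed to 0.304 ± 0.0438 and 0.106 ± 0.0627 FPKM, with CDH5 the most abundant. These low marker levels moved with the condition, and their part in the checkpoint results was not tested. In RNA from a whole culture, fewer cells that express a gene and less RNA per cell cannot be told apart.

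Of the 10 checkpoint genes, 9 passed edgeR's filter on low counts and were tested, and VTCN1 did not pass. All 9 differed between the conditions at a Benjamini-Hochberg adjusted p under 0.05, with 5 higher and 4 lower under hypoxia. This count has to be read against the whole table, since 77.8% of the 14255 tested genes were called in this comparison, 39.2% higher and 38.5% lower. ENTPD1 passed the filter only through its hypoxia libraries and PDCD1LG2 only through its normoxia libraries, so both had to differ, and the counts over the 9 genes are a description. Of the 7 genes with at least 10 counts in every library all 7 were called, 4 higher and 3 lower, where 78.7% of 12665 genes were called. The 5 higher genes were CD276, ENTPD1, NECTIN2, CD47 and LGALS9, and the 4 lower genes were CD274, PDCD1LG2, NT5E and PVR. A log2-fold change beyond 1 in size was found for ENTPD1, LGALS9, PDCD1LG2 and PVR, a threshold passed by 30.4% of the tested genes, 19.9% upwards and 10.5% downwards. Over the 9 genes the log2-fold change had a median of 0.16, beside 0.02 over all tested genes. In 8 of the 9 the CPM of the conditions did not overlap, 4 higher and 4 lower, which held for 80.5% of the tested genes, 40.6% higher and 39.9% lower.

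**Figure D1:**
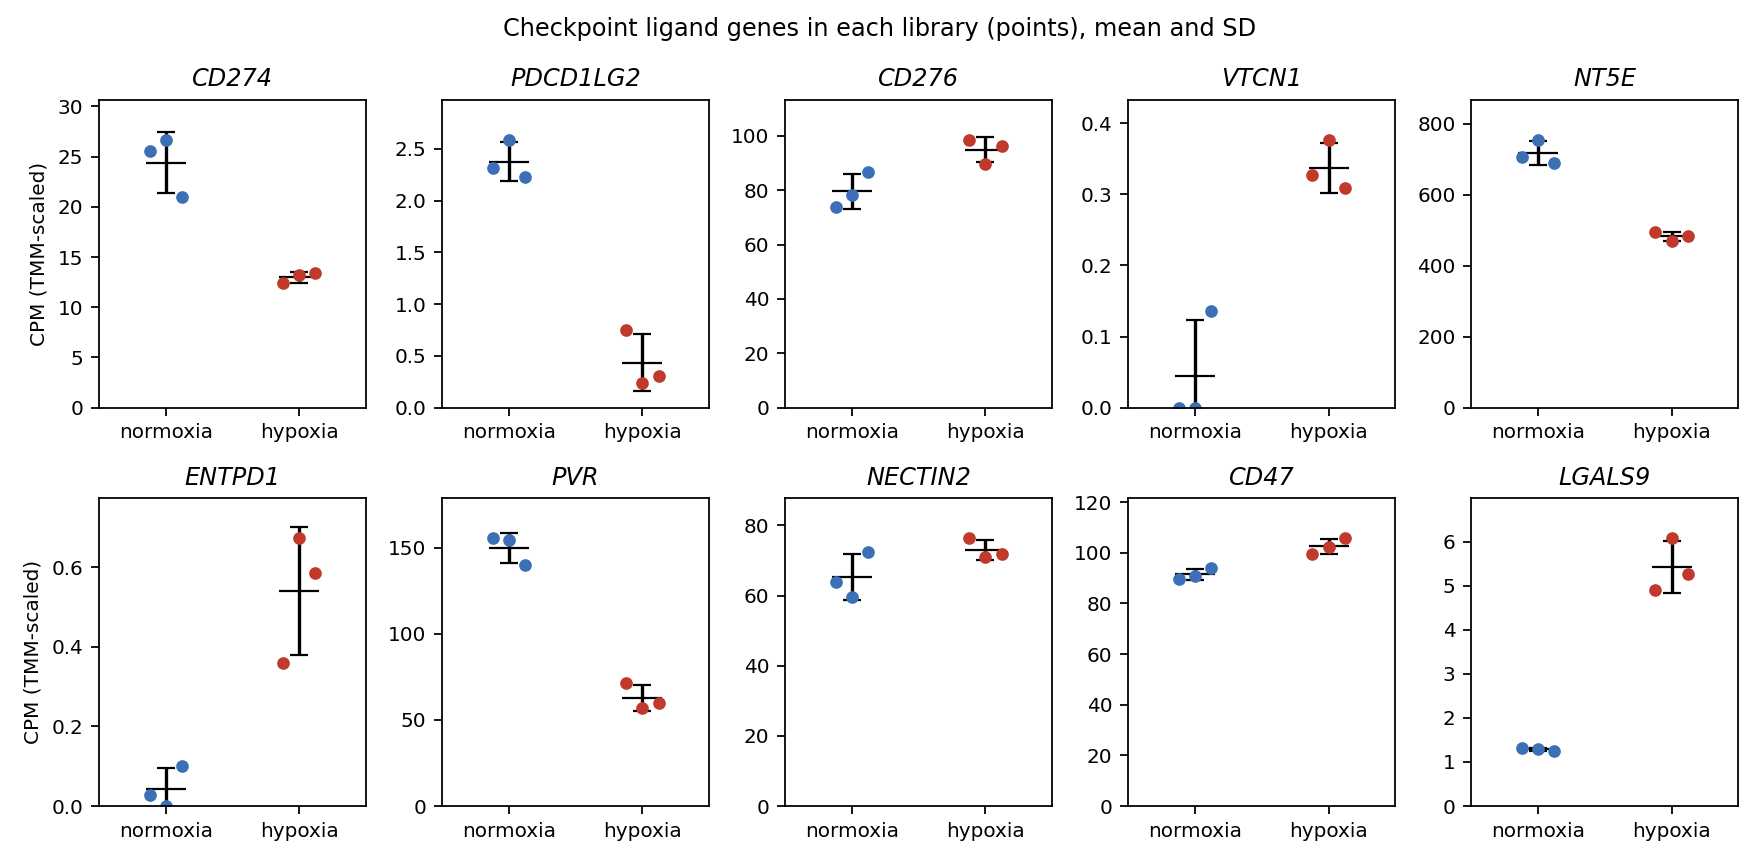
TMM-scaled counts (CPM, vertical axes from 0, each with its own range) of the 10 genes in the 3 normoxia (blue) and 3 hypoxia (red) libraries, replicates 1 to 3 from left to right, with the mean and the SD as bars. CD274, PDCD1LG2, NT5E and PVR lay lower in every hypoxia library than in any normoxia library, the points of NECTIN2 overlapped, and the other 5 genes lay higher.

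The gene for PD-L1 was lower under hypoxia. CD274 was at 12.4, 13.2 and 13.4 CPM in hypoxia replicates 1 to 3 and at 25.6, 26.7 and 21.0 CPM in normoxia replicates 1 to 3. The hypoxia libraries lay close together and below all normoxia libraries, of which replicate 3 was the lowest. The mean was 13.0 ± 0.543 CPM under hypoxia against 24.4 ± 3.01 CPM under normoxia (n = 3 each), 1.88-fold lower. The log2-fold change was -0.91 with a standard error of 0.10 and an adjusted p of 2.225e-07 in edgeR. It lay between -1.02 and -0.85 when each library was left out in turn and passed the test each time. Among all tested genes, 65.3% had a smaller change in size. These values are of RNA, and the protein at the membrane was not measured in these libraries. The study itself reported the opposite direction for PD-L1 RNA, higher under hypoxia, by RT-qPCR in SCC9, SIHa and KYSE510 cells. Those are lines other than the one labelled here, and the cause of the difference was not tested.

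PDCD1LG2, the gene for the other PD-1 ligand, was also lower and much less abundant. It had 23, 9 and 10 counts in hypoxia replicates 1 to 3 and 86, 74 and 66 counts in normoxia replicates 1 to 3, which correspond to 0.435 ± 0.278 against 2.38 ± 0.186 CPM. Hypoxia replicate 1 held more than the other hypoxia libraries, yet less than any normoxia library. The gene was tested only through its normoxia libraries, where it is high, so the fitted values are a description. Its log2-fold change was -2.47 with a standard error of 0.37, and it was -3.11 without hypoxia replicate 1. The summed counts of the 3 libraries gave a hypoxia to normoxia ratio of 0.177, with a 95% interval for counting error alone of 0.124 to 0.247.

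Because both ligands share the receptor PD-1, their ratio was taken within each library, with 0.5 added to each count. CD274 exceeded PDCD1LG2 by 16.1, 51.7 and 41.5 times under hypoxia and by 11.01, 10.3 and 9.35 times under normoxia. The groups did not overlap, and hypoxia replicate 1 was the nearest to normoxia. On the log2 scale the ratio was 1.68 higher under hypoxia with a standard error of 0.52. PDCD1LG2 passed the filter only through its normoxia libraries, so this ratio is a description and not a test. Both genes fell, and the ratio describes only how unequal the decreases were in these counts. Their summed level was 3.64, 3.73 and 3.72 FPKM under hypoxia against 7.72, 7.85 and 6.39 FPKM under normoxia.

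The other members of the B7 family rose or were close to the detection limit. CD276 was at 98.5, 89.6 and 96.3 CPM under hypoxia and at 73.9, 78.3 and 86.6 CPM under normoxia, so that the groups were separate but close. Its log2-fold change was 0.25 with a standard error of 0.06 (edgeR adjusted p = 0.001646), and only 22.1% of the tested genes had a smaller change in size. VTCN1 had 10, 14 and 10 counts under hypoxia and 0, 0 and 4 counts under normoxia. The ratio of its summed counts was 8.10 with a counting interval of 2.89 to 31.4, which rests on the 4 counts of normoxia replicate 3. Fitted without a filter, VTCN1 had a log2-fold change of 2.84 with a standard error of 0.95 (edgeR adjusted p = 0.006015), where 54.7% of 21776 genes were called.

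Relative to CD276, CD274 was at 0.126, 0.147 and 0.139 counts per count under hypoxia and at 0.346, 0.341 and 0.242 under normoxia. Within the B7 ligands the balance of RNA therefore differed by -1.16 on the log2 scale with a standard error of 0.18, again without overlap. The exact two-sided permutation test gave p = 0.1, the smallest that 3 against 3 libraries allow.

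Of the nectin family ligands, PVR was lower and NECTIN2 was near its normoxic level. PVR was at 71.4, 57.0 and 59.6 CPM under hypoxia and at 156, 155 and 140 CPM under normoxia, which left a wide gap between the groups. The mean was 62.7 ± 7.65 against 150.0 ± 8.71 CPM, 2.39-fold lower, with a log2-fold change of -1.26 and a standard error of 0.07 (edgeR adjusted p = 6.428e-11). A change of smaller size was found in 78.0% of the tested genes.

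NECTIN2 was at 76.3, 71.1 and 71.8 CPM under hypoxia and at 63.8, 59.6 and 72.5 CPM under normoxia. Normoxia replicate 3 lay within the hypoxia values, so the groups overlapped. The log2-fold change of 0.16 with a standard error of 0.07 passed the test narrowly (edgeR adjusted p = 0.03907). It passed in only 1 of the 6 fits with a library left out, the fit without normoxia replicate 3, and the adjusted p reached 0.229 in the others. Without the filter on low counts it was 0.12 (edgeR adjusted p = 0.1001).

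PVR and NECTIN2 therefore exchanged their order. The ratio of PVR to NECTIN2 counts was 0.935, 0.802 and 0.829 under hypoxia and 2.44, 2.59 and 1.93 under normoxia. Every hypoxia library held fewer counts of PVR than of NECTIN2, and every normoxia library held more. The log2 ratio differed by -1.43 with a standard error of 0.15 (exact permutation p = 0.1, the smallest possible). Per length, the summed level of the pair was 34.7, 31.3 and 31.2 FPKM under hypoxia against 44.6, 41.8 and 44.1 FPKM under normoxia.

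Of the enzymes of the adenosine pathway, NT5E fell and ENTPD1 held more counts under hypoxia, at levels that differ greatly. NT5E was the most abundant of the 10 genes, at 495, 470 and 484 CPM under hypoxia and at 706, 754 and 689 CPM under normoxia. The libraries of each condition lay close together with a clear gap between the conditions. Its log2-fold change was -0.57 with a standard error of 0.05 (edgeR adjusted p = 1.913e-08), and 46.4% of the tested genes had a smaller change in size.

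ENTPD1 had 11, 25 and 19 counts under hypoxia and 1, 0 and 3 counts under normoxia. Every hypoxia library thus held more than any normoxia library, at counts close to the detection limit. The ratio of the summed counts was 13.1 with a counting interval of 4.83 to 49.8. Since the gene was tested only through the condition in which it is high, the fitted values are a description, with a log2-fold change of 3.58 and a standard error of 0.72, and it was 4.84 without normoxia replicate 3, which holds 3 of the 4 normoxia counts. In GENCODE v29, 454 of the 5458 exonic bases of ENTPD1 are shared with ENTPD1-AS1 on the opposite strand. The antisense gene was lower under hypoxia, at 0.803 against 2.31 CPM. Whether the counting used the strand is not given in the sources used here, so reads of the pair may not be separable in the shared bases.

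NT5E exceeded ENTPD1 in counts by 1313, 685 and 805 times under hypoxia. The log2 ratio differed by -4.19 from normoxia, with a standard error of 0.88, and by -2.36 with 5 counts added in place of 0.5. ENTPD1 passed the filter only through its hypoxia libraries, so this ratio too is a description and not a test. The direction was the same with both, and the size depends on how the low counts of ENTPD1 are treated.

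CD47 was at 99.6, 102 and 106 CPM under hypoxia and at 89.5, 90.8 and 93.9 CPM under normoxia. The groups were separate, by a small margin. The log2-fold change was 0.17 with a standard error of 0.05 (edgeR adjusted p = 0.008884). Without hypoxia replicate 3 the edgeR adjusted p was 0.06067, without normoxia replicate 1 it was 0.06795, and without the filter on low counts it was 0.07554. Only 14.7% of the tested genes changed less in size.

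LGALS9 rose from a low level, with 150, 226 and 171 counts under hypoxia and 49, 37 and 37 counts under normoxia. In CPM it was at 4.91, 6.08 and 5.27 under hypoxia and at 1.32, 1.29 and 1.25 under normoxia, with a wide gap between the groups. The log2-fold change was 2.07 with a standard error of 0.20 (edgeR adjusted p = 3.731e-08), and 90.9% of the tested genes had a smaller change in size.

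The near-identical copies LGALS9B and LGALS9C can share reads with LGALS9, so its value is uncertain in size. LGALS9B had 50, 48 and 56 counts under hypoxia and 60, 49 and 39 under normoxia, with a log2-fold change of 0.00 and an edgeR adjusted p of 0.995. LGALS9C had 70, 80 and 58 against 56, 54 and 40 counts, with a log2-fold change of 0.40 and an edgeR adjusted p of 0.1709. Summed over the 3 copies, the level was 8.84, 9.52 and 8.78 CPM under hypoxia and 4.43, 4.89 and 3.92 CPM under normoxia. That sum differed by 1.04 in mean log2 CPM (exact permutation p = 0.1, the smallest possible), an alternative chosen after the data had been seen.

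**Figure D2:**
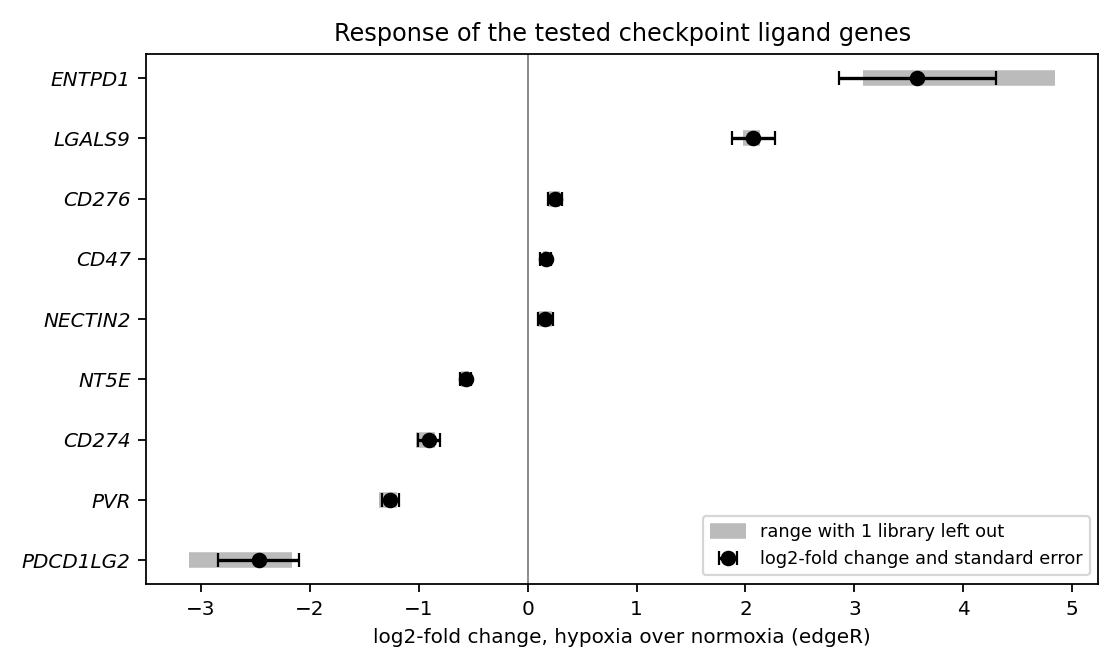
Log2-fold change of the 9 tested genes, hypoxia over normoxia (horizontal axis, edgeR), with the standard error as a black bar and the range over 6 fits that each leave out a library as a grey band. No band crosses 0, and the bands of ENTPD1, from 3.08 to 4.84, and PDCD1LG2, from -3.11 to -2.17, are the widest.

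Levels were compared between the genes per length, in FPKM. Under normoxia the order of the mean levels was NT5E at 198, PVR at 24.6, CD276 at 20.6, NECTIN2 at 18.9, CD47 at 8.87, CD274 at 6.40, PDCD1LG2 at 0.923, and LGALS9 at 0.394 FPKM, and then VTCN1 and ENTPD1, whose normoxia counts of 0 to 4 and 0 to 3 are too low for a level to be stated or ranked. Neighbours among the first 8 did not overlap between libraries, except for CD276 with NECTIN2. Under hypoxia the order was NT5E at 138, CD276 at 25.4, NECTIN2 at 21.8, PVR at 10.6, CD47 at 10.3, CD274 at 3.52, LGALS9 at 1.71, PDCD1LG2 at 0.174, VTCN1 at 0.0958 and ENTPD1 at 0.0336 FPKM. There PVR overlapped with CD47, and PDCD1LG2 with VTCN1.

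PVR thus moved from rank 2 to rank 4, and LGALS9, counted without its copies, passed PDCD1LG2. Summed with its copies it was already higher in normoxia, at 4.43, 4.89 and 3.92 CPM. PDCD1LG2 was at 2.31, 2.59 and 2.23 CPM there. CD274 kept rank 6 in both conditions. NT5E made up 71.0% ± 1.22 of the summed FPKM of the 10 genes under normoxia and 65.2% ± 0.297 under hypoxia. The sum over the 10 genes was 217, 208 and 209 FPKM under hypoxia and 279, 283 and 273 FPKM under normoxia. The gene lengths that the deposited values imply ran from 2529 bases for PDCD1LG2 to 16310 bases for ENTPD1, and the level of ENTPD1 depends on that length.

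By the gene ontology terms in the deposited annotation, 7 of the 10 genes are placed in the plasma membrane, a term held by 21.4% of the 12420 tested genes with any term. The external side of the plasma membrane is given for CD274, PDCD1LG2, CD276, VTCN1 and NT5E, and for 1.20% of those tested genes.

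Genes that regulate PD-L1 after transcription were described next, since RNA and surface protein can diverge. Of 20 such genes, all tested, 12 fell, 4 rose and 4 did not pass the test, where 77.8% of all tested genes were called, 39.2% higher and 38.5% lower. Their median log2-fold change was -0.15, beside 0.02 over all tested genes. The list joins genes that stabilise PD-L1 and genes that destroy it, so its direction has no single meaning. The largest decrease was of TRAPPC4, a trafficking factor in the recycling of PD-L1, with a log2-fold change of -1.40 and a standard error of 0.08 (edgeR adjusted p = 7.106e-11). TRAPPC4 was at 20.3, 16.7 and 17.2 CPM under hypoxia and at 50.1, 48.2 and 44.5 CPM under normoxia. CUL3, a scaffold of a ubiquitin ligase that marks PD-L1 for degradation, fell from 123 ± 1.63 to 74.2 ± 3.21 CPM.

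CMTM6, which keeps PD-L1 at the cell surface, was at 186, 186 and 175 CPM under hypoxia and at 153, 150 and 161 CPM under normoxia. It rose by 0.24 on the log2 scale with a standard error of 0.05 (edgeR adjusted p = 5.31e-04). Its relative CMTM4 was at 108 ± 4.15 CPM under hypoxia and 120 ± 4.25 CPM under normoxia (log2-fold change -0.15, edgeR adjusted p = 0.01566). That call was lost in edgeR (adjusted p = 0.1881) on the genes that had 10 counts or more in each library. CHP1, a calcineurin B homologue that binds PD-L1 in the study's model, was at 162 ± 6.89 against 95.3 ± 3.30 CPM, and its log2-fold change was 0.77 with a standard error of 0.05 (edgeR adjusted p = 7.34e-10). By immunoblotting, which measures protein and not RNA, the study reported no significant change of CHP1 expression under hypoxia.

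Of 17 genes for factors that control CD274 transcription or carry the interferon-gamma signal, 16 were tested, 6 rose, 6 fell and 4 did not pass the test, near the 77.8% called over all tested genes. Their median log2-fold change was -0.01. IRF1, through which interferon-gamma induces CD274, was at 54.5 ± 4.43 against 57.7 ± 4.27 CPM, with an edgeR adjusted p of 0.2924. JAK2, a kinase of the interferon-gamma receptor, was at 4.22 ± 0.610 against 4.92 ± 0.667 CPM, with an edgeR adjusted p of 0.2545.

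MYC, a growth-promoting factor, fell from 256 ± 5.12 to 34.9 ± 7.38 CPM, a log2-fold change of -2.88 (edgeR adjusted p = 1.299e-13). HIF1A, the oxygen-regulated subunit of HIF-1, fell at the RNA level from 320 ± 14.7 to 67.0 ± 10.4 CPM, and EPAS1, the corresponding subunit of HIF-2, rose from 105 ± 9.84 to 276 ± 12.9 CPM. Both are regulated mainly through the stability of their proteins, which RNA does not show. JUN, a subunit of AP-1, rose from 33.6 ± 0.651 to 126 ± 19.6 CPM.

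Other ligands that tumour cells can show to lymphocytes were mostly higher. Of 28 such genes, 25 were in the table and 19 were tested. Among these, 15 rose, 1 fell and 3 did not pass the test, where 39.2% of all tested genes were called higher and 38.5% lower. The median log2-fold change was 1.03. The gene that fell was HMGB1, a nuclear protein that also binds TIM-3, with a log2-fold change of -0.77 (edgeR adjusted p = 3.865e-10). It was named after its value had been seen.

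NECTIN4, a nectin that binds TIGIT, had 1371, 2123 and 1790 counts under hypoxia and 123, 73 and 112 counts under normoxia. It rose from 3.21 ± 0.622 to 52.4 ± 6.55 CPM, a log2-fold change of 4.02 with a standard error of 0.13 (edgeR adjusted p = 3.752e-14). VSIR, which codes for the checkpoint protein VISTA, rose from 5.28 ± 0.843 to 21.4 ± 1.43 CPM. The butyrophilins BTN3A1 and BTN3A3, of which BTN3A1 presents signals to gamma delta T cells, rose by 1.84 and 1.83 on the log2 scale (edgeR adjusted p = 1.435e-09 and 2.065e-09). TNFRSF14, the ligand of BTLA, rose by 1.66 (edgeR adjusted p = 3.015e-10). CEACAM1, an adhesion protein that also binds TIM-3, rose by 1.71 with a standard error of 0.26 (edgeR adjusted p = 1.212e-05).

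Around the enzymes NT5E and ENTPD1, 22 genes that make, carry, break down or sense extracellular ATP and adenosine were listed, of which 14 were tested. Of these 7 rose, 5 fell and 2 did not pass the test, beside 77.8% called over all tested genes (39.2% higher, 38.5% lower). The median log2-fold change was 0.28. ENTPD3, ENTPD8, ADORA1 and DPP4 passed the filter only through their hypoxia libraries, so they could only be called higher. The counts and the median of this list are therefore a description. With at least 10 counts in every library 9 of its genes were called, where 78.7% of 12665 genes were called. ENTPD8, another surface enzyme that splits ATP, had counts of 56, 123 and 65 in the hypoxia and of 2, 2 and 10 in the normoxia libraries. It too passed the filter through the condition in which it is high, and its fitted log2-fold change was 3.98 with a standard error of 0.49, and 5.20 without normoxia replicate 3. ADA, which degrades adenosine, rose from 7.02 ± 1.62 to 30.9 ± 1.16 CPM. SLC29A1, an adenosine carrier of the plasma membrane, fell from 77.0 ± 10.3 to 22.3 ± 1.04 CPM. ADORA2B, an adenosine receptor, fell from 42.6 ± 4.09 to 16.3 ± 0.223 CPM.

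Beside CD47, 12 genes of signals for or against phagocytosis were listed and 9 were tested, of which 5 rose, 2 fell and 2 did not pass the test (median log2-fold change 0.40). This share called equals the 77.8% over all tested genes. QPCTL, the enzyme that modifies CD47 so that SIRPA can bind it, rose from 9.47 ± 0.853 to 12.5 ± 0.878 CPM, a log2-fold change of 0.40 with a standard error of 0.11 (edgeR adjusted p = 0.004017). Its relative QPCT rose by 0.76 (edgeR adjusted p = 7.567e-06). CD24, another signal against phagocytosis, rose from 7.01 ± 0.664 to 12.4 ± 0.785 CPM. THBS1, a secreted ligand of CD47, was at 360, 264 and 274 CPM under hypoxia and at 2166, 2430 and 1827 CPM under normoxia. LRP1, a receptor for the engulfment signal calreticulin, rose from 39.9 ± 16.1 to 347 ± 46.5 CPM.

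The lymphocyte receptors of these ligands were at low counts in this culture. Of 12 such receptor genes 6 were in the table, and none was tested. CD226 had at most 2 counts in any library, PVRIG at most 4, HAVCR2 at most 7, CD96 at most 8 and LAG3 at most 10, and BTLA had at most 1. SIRPA, the macrophage receptor of CD47, was by contrast detected, at 32.3 ± 0.864 CPM under hypoxia and 31.1 ± 0.323 CPM under normoxia (edgeR adjusted p = 0.4801). At these totals a count of 3 is taken as the floor below which no level can be stated.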

How the data were processed

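The authors deposited whole-number read counts for 21776 genes without normalization, and FPKM for the same genes. FPKM of 21775 genes could be recomputed from the counts, a gene length and the library total. The aligner, counting tool, annotation and use of strand are not given in the sources used here. The submitters' processing notes list the mouse builds GRCm38 and mm10, although the genes carry human symbols and Entrez numbers, so no gene coordinates are printed other than the RefSeq promoter windows. Exon overlaps (GENCODE v29) and gene order (RefSeq) were read from references that may differ from the authors' annotation.

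The quasi-likelihood test of edgeR 4.0.16 (R 4.3.3, glmQLFit and glmQLFTest) was run on TMM-normalized counts of the 14255 genes kept by filterByExpr, with no covariate beside condition and with Benjamini-Hochberg adjustment at 0.05. A standard error is the log2-fold change divided by the square root of F. Ratios were tested by exact two-sided permutation over libraries, and those with PDCD1LG2 or ENTPD1 are given as a description. Totals of 29637189 to 37278703 counts set the precision, and intervals of 95% on summed counts cover counting error only. Replicates of a condition differed by more than sampling noise (5.11 to 11.5 in chi-square per gene), and each was counted as 1 sample. On simulated counts of 14084 genes, edgeR found 89 of 97 genes changed by 1 and 98 of 98 changed by 2 on the log2 scale. The simulation changed 200 genes, as many up as down, with the same scatter between libraries for every gene. In the data 77.8% of the tested genes were called, so this recovery may not carry over to them. False calls in the simulation are not reported here.

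The genes and lists were chosen with earlier results of these data known. Named are the 10 genes, in each list up to 4 called genes with the largest change and a mean of at least 1 CPM, CMTM6, CMTM4, CHP1, JAK2, IRF1, HIF1A, TNFRSF14, CEACAM1, ADORA2B, ADA, QPCTL and CD24 whatever their result, the most abundant marker of each cell type and 3 hypoxia response genes. Some genes that fall under this rule are not reported here. Alternatives were DESeq2 1.42.0 (size factors and Wald test), other filters, a replicate block, each library left out, limma 3.58.1 on log2(FPKM + 1) or log2(FPKM + 0.1), 5 counts added in the ratios and LGALS9 summed with its copies. The last was added after the data had been seen.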

Additional observations from a re-analysis of the deposited data

How the results depend on the processing

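The number of checkpoint genes called was 9 of 9 with DESeq2's size factors, with the DESeq2 Wald test and with the replicate block, where 11096, 10859 and 10875 of all 14255 genes were called. It was 8 of 10 without the filter on low counts (NECTIN2 and CD47 were not called), beside 11920 of 21776 genes, 7 of 7 with at least 10 counts in every library, beside 9967 of 12665 genes, and 7 of 7 with limma on log2(FPKM + 1) where the mean reached 1 FPKM, beside 8875 of 10976 genes. With 1 library left out in turn it was 8 to 10 of 9 or 10 tested, beside 10669 to 11390 of all genes (73.3% to 77.4% of those tested), 14 to 17 PD-L1 protein regulators, 12 to 13 genes of CD274 transcription and interferon-gamma signalling, 15 to 17 other ligands, 11 to 12 genes of ATP and adenosine, 7 to 7 phagocytosis genes and 0 to 0 lymphocyte receptors. The ATP and adenosine list had 7 called genes, in place of 12, in limma on log2(FPKM + 1) and on log2(FPKM + 0.1), where fewer genes were tested. No direction of the 10 genes or of the 4 ratios reversed under these alternatives. For LGALS9B, which was not called, leaving out a library gave -0.12 to 0.12 on the log2 scale. Calls were lost for NECTIN2, CD47 and CMTM4 and, with a library left out, also for GSK3B, STUB1 and KRT5 (called in 5 of 6 fits), DPP4 (3 of 6), ICOSLG and CDH5 (2 of 6 each), and the cause was not tested. NECTIN2 missed the threshold in limma on FPKM without a filter (0.20, adjusted p = 0.07525). The log2 ratio of NT5E to ENTPD1 moved to -2.36 with 5 counts added, which is the effect of the added counts on a gene with 0 to 3 counts. With a library left out, the ratios ranged from 1.34 to 2.19 for CD274 to PDCD1LG2, from -1.56 to -1.34 for PVR to NECTIN2, from -4.94 to -3.49 for NT5E to ENTPD1 and from -1.32 to -1.07 for CD274 to CD276. Replicate numbers are shared between the conditions, but libraries of the same number did not deviate together (correlations of 0.02, -0.07 and 0.00), so they were taken to share only a number. With the replicate block the ratios keep their values by construction, since the mean of paired differences equals the difference of the means. The exact sign-flip p of PVR to NECTIN2 and of CD274 to CD276 was 0.25, the smallest that 3 pairs allow. Depth limits PDCD1LG2, ENTPD1 and VTCN1, whose counts were at most 23, 25 and 14 under hypoxia and, for ENTPD1 and VTCN1, at most 3 and 4 under normoxia.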

Other observations

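CD274 and PDCD1LG2 lie next to each other on chromosome 9, and the genes on either side of them in the RefSeq gene order were looked at after the values had been seen. RIC1, which follows PDCD1LG2 and codes for a trafficking protein of the Golgi, rose from 36.9 ± 0.151 to 92.3 ± 3.55 CPM under hypoxia (log2-fold change 1.32, standard error 0.06, edgeR adjusted p = 1.527e-12, n = 3 per condition). ERMP1, the next gene, rose from 68.1 ± 2.47 to 91.7 ± 1.39 CPM (log2-fold change 0.43, edgeR adjusted p = 1.155e-06). PLGRKT, a plasminogen receptor that precedes CD274, was at 8.57 ± 0.694 against 10.5 ± 1.51 CPM (log2-fold change -0.28, edgeR adjusted p = 0.05387). With a library left out its log2-fold change lay between -0.42 and -0.23, and it was called in 2 of the 6 fits. RLN2, a relaxin before PLGRKT, rose by 0.79 on the log2 scale (edgeR adjusted p = 0.002773) from 1.83 ± 0.113 to 3.17 ± 0.277 CPM. RIC1, ERMP1 and RLN2 thus rose where the pair of PD-1 ligand genes fell, and PLGRKT was lower without passing the test. Whether the position of the pair has a part in its decrease was not tested.

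Ligands with other partners, likewise named after their values had been seen, included CD70, the ligand of CD27, which had 90, 91 and 133 counts under hypoxia and 32, 24 and 31 counts under normoxia (log2-fold change 1.79, standard error 0.28, edgeR adjusted p = 1.432e-05). TNFSF9, the ligand of the co-stimulatory receptor 4-1BB, rose from 12.9 ± 0.781 to 21.7 ± 1.43 CPM (edgeR adjusted p = 1.097e-06). Of other galectin genes, LGALS9B and LGALS9C did not pass the test as given above, and these 3 rose: LGALS1 was at 1034 ± 33.6 against 506 ± 66.4 CPM (log2-fold change 1.03, edgeR adjusted p = 5.621e-10), LGALS8 was at 137 ± 6.01 against 70.9 ± 1.93 CPM (0.96, 4.782e-11) and LGALS3 was at 58.5 ± 5.398 against 38.1 ± 1.06 CPM (0.62, 3.368e-07).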
